A study of Mus musculus with 3 samples.

Results

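Conventional type 1 dendritic cells (cDC1) of the folic acid (FA)-injured mouse kidney were chosen by their transcripts from droplet single-cell RNA sequencing, and 204 of the 48404 barcodes kept met the rule. A barcode was kept with at least as many unique molecular identifiers (UMIs, the counted RNA molecules) as the shallowest deposited barcode of Aoah-/- mouse 3, at least 200 genes and at most 50% of UMIs from mitochondrial genes. A kept barcode was called cDC1 when at least 3 of the 6 genes Xcr1, Clec9a, Irf8, Naaa, Wdfy4 and Cst3 had a UMI, Xcr1 or Clec9a among them. It also had to hold at most 2 UMIs of the macrophage genes C1qa, C1qb and C1qc, at most 1 UMI of the lymphoid genes Cd3g, Cd79a and Siglech, and at most 2 UMIs of the proximal tubule genes Lrp2 and Slc34a1. The levels of these genes in cDC1 follow from the selection and are given as a description only.

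The study compared kidneys of FA-treated mice that lacked Aoah (Aoah-/-) with those of FA-treated wild-type (WT) mice, collected on day 14 at an age of 6 to 8 weeks. Aoah encodes acyloxyacyl hydrolase, an enzyme that inactivates bacterial lipopolysaccharide (LPS). There were 2 Aoah-/- libraries (mouse 2 and mouse 3) and 1 WT library (mouse 3), each from kidney that was perfused, digested with type IV collagenase and depleted of erythrocytes by lysis. The knockout was global rather than limited to a cell type, the mutated gene had been crossed onto C57/BL6J, and WT controls were littermates from heterozygous breeders. A single WT library allows no test across mice. Differences between the genotypes are therefore set beside the SD (standard deviation) of the 2 Aoah-/- libraries, and the WT side has no replicate check. Where 3 values follow each other without names, they belong to Aoah-/- mouse 2, then Aoah-/- mouse 3, then WT.

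cDC1 are the dendritic cells that take up dead cells and present their antigens to CD8 T cells, a process called cross-presentation. They depend on the transcription factors IRF8, BATF3 and ID2 and on the growth factor FLT3L, and they carry the chemokine receptor XCR1, which binds XCL1 from natural killer cells and T lymphocytes, and CLEC9A, which binds actin exposed by dead cells. When they mature they gain CCR7, migrate to lymph nodes and make interleukin-12. cDC2, the other conventional type, mainly serve CD4 T cells.

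The libraries held 167222984 UMIs in 25516 barcodes (Aoah-/- mouse 2), 161015021 in 24693 (Aoah-/- mouse 3) and 158551992 in 23072 (WT). Deposited barcodes went down to 500 UMIs in all libraries but that of Aoah-/- mouse 3, where the lowest total was over 3 times as high and became the minimum for all libraries. It left 15441, 19692 and 13271 barcodes in this order. The cDC1 numbered 60, 95 and 49 and held 468233, 819168 and 470324 UMIs, with medians of 8013, 7851 and 9775 UMIs per barcode. A count of 3 UMIs, taken as the floor, corresponded to 6.41, 3.66 and 6.38 UMIs per 1000000 UMIs of cDC1 (CPM). Levels below are UMIs summed over the barcodes of a population in CPM. Exact Poisson 95% intervals of levels and exact Clopper-Pearson 95% intervals of shares cover counting error only. Between 171 and 176 barcode sequences were shared by each pair of libraries, and 2 cDC1 barcodes also occurred in another library, with no barcode called cDC1 in both.

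The deleted gene was almost absent from cDC1 of every library. Aoah (GRCm38, chromosome 13, 20794113 to 21036617, plus strand) had 1, 0 and 1 UMIs in cDC1, so cDC1 could not check the genotype labels. In C1q macrophage-like barcodes, Aoah was at 3.07 CPM, 3.69 CPM and 23.04 CPM, and in proximal tubular epithelial cell (PTEC)-like barcodes at 12.5 CPM, 10.9 CPM and 26.1 CPM. Both Aoah-/- libraries were below the WT library in these populations, while the gene kept some UMIs in each of them. Whether the sequenced 3′ ends lie in the deleted part is not given in the sources used here.

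The selection genes themselves were at these levels. Xcr1 (chromosome 9, 123852315 to 123862029, minus strand) was at 348 CPM, 298 CPM and 204 CPM in cDC1 and at 0.422 CPM, 1.03 CPM and 0.410 CPM in the other kept barcodes. Clec9a (chromosome 6, 129408862 to 129424763, plus strand) was at 249.9 CPM, 250.3 CPM and 223 CPM, and Irf8 at 1119 CPM, 1129 CPM and 927 CPM. Naaa, a lysosomal lipid hydrolase, was at 801 CPM, 836 CPM and 580.5 CPM, Wdfy4, which cross-presentation needs, at 410.1 CPM, 400.4 CPM and 391 CPM, and Cst3 at 18365 CPM, 18541 CPM and 23450 CPM. All of them but Cst3, which was highest there, were lowest in the WT library. Both Xcr1 and Clec9a were detected in 97 of the 204 members, Xcr1 alone in 29 and Clec9a alone in 78.

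The cDC1 label held in every library for the barcodes with all 6 selection genes, unevenly for those with 5 and not for those with 3 or 4. The number of detected selection genes was 3 in 40 barcodes, 4 in 34, 5 in 41 and 6 in 89. Cadm1, a cell adhesion molecule of cDC1 that the selection did not use, was at 11.1 CPM in barcodes with 3 selection genes, 48.7 CPM with 4, 74.7 CPM with 5 and 260 CPM with 6. Itgae, the integrin CD103, went from 3.68 CPM with 3 genes to 205 CPM with 6 genes. Other genes were less graded: Batf3 was at 107 CPM, 126 CPM, 107 CPM and 190 CPM with 3, 4, 5 and 6 genes. Flt3 was at 62.6 CPM, 64.9 CPM, 74.7 CPM and 148 CPM. In the 8 WT barcodes with 3 genes Batf3 was at 326 CPM, above the 144 CPM of WT barcodes with 6. The 27 measured cDC1 identity genes beyond the selection summed to 1046 CPM, 1424 CPM, 3244 CPM and 5318 CPM at 3, 4, 5 and 6 genes. The order held from 4 genes upwards in every library, while in the WT library the sum was lower with 4 genes (802.5 CPM) than with 3 (1535 CPM).

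Over the summed libraries, cDC2 and distal nephron genes were lowest in barcodes with all 6 selection genes. The 20 cDC2 genes summed to 4298 CPM with 3 selection genes, 5614 CPM with 4, 1836 CPM with 5 and 786 CPM with 6, and Cd209a, a lectin of cDC2, was at 287 CPM, 487 CPM and 110.3 CPM with 3, 4 and 5 genes and had 0 UMIs with all 6. The 10 genes of the distal nephron (Umod, Slc12a1, Slc12a3, Wfdc2, Kcnj1, Calb1, Pvalb, Aqp2, Atp6v1g3 and Slc4a1) summed to 3389 CPM, 394 CPM, 1291 CPM and 91.8 CPM at 3, 4, 5 and 6 genes. In the WT library their sum was low throughout (69.8 CPM, 25.5 CPM, 25.9 CPM and 33.2 CPM). With 3 and with 4 selection genes the cDC2 sum exceeded the cDC1 identity sum, so these 40 and 34 barcodes went against the label and are called cDC1 by the rule alone. With 5 genes the identity sum of 2498 CPM in Aoah-/- mouse 3, which held 22 of the 41 barcodes, lay below its cDC2 sum of 2519 CPM and its macrophage sum of 2932 CPM, so the label did not hold there. All 40 with 3 genes had a UMI of Cst3, a cysteine protease inhibitor, which was also detected in 73.2%, 73.3% and 69.6% of all kept barcodes of the 3 libraries. Over the summed libraries, median totals were 6270, 5569, 6057 and 10626 UMIs at 3, 4, 5 and 6 genes, highest with all 6. Within libraries, they were higher with 4 genes than with 6 in Aoah-/- mouse 2 (9366 against 8742) and WT (12632 against 10957). The part of depth in these differences was not tested.

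**Figure D1:**
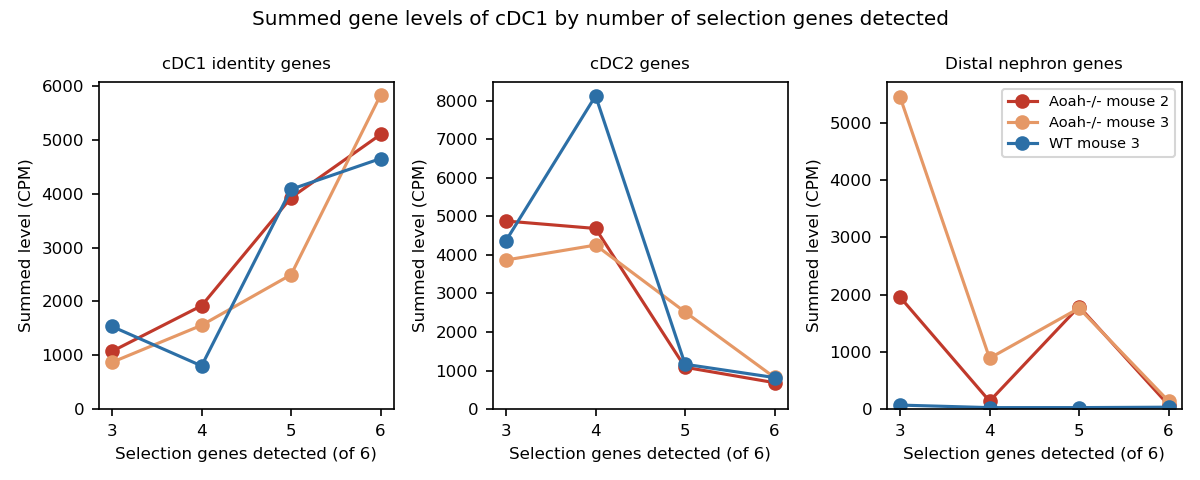
Summed levels (CPM, vertical axis) of cDC1 identity genes, cDC2 genes and distal nephron genes in cDC1 with 3, 4, 5 or 6 of the 6 selection genes detected (horizontal axis), 1 line per library. Identity genes were highest and cDC2 genes lowest in barcodes with all 6 genes, and distal nephron genes were highest in the barcodes of Aoah-/- mouse 3 with 3 genes (5452 CPM).

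At the edges of the selection, the 34 barcodes just outside it with 2 selection genes had 34.8 CPM of Batf3 and 34.8 CPM of Cadm1, compared with 107 CPM and 11.1 CPM in the 40 just inside with 3. The 123 members with 1 or 2 UMIs of Lrp2 and Slc34a1 had 153 CPM of Batf3 and 148 CPM of Cadm1, and the 27 barcodes with 3 to 5 such UMIs, just outside, had 57.8 CPM and 111 CPM. Only 5 barcodes with 3 to 5 C1q UMIs and 5 with 2 or 3 lymphoid UMIs were kept out by those limits. Between 1000 UMIs and the minimum, 17 barcodes met the other criteria (9, 0 and 8 per library). Overall 676 kept barcodes had a UMI of Xcr1 or Clec9a, and 204 of them were members.

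Genes of MHC class II presentation were at a higher level in cDC1 than in the sum of the other kept barcodes. Among genes with at least 100 CPM on either side, 342 of 1715 (19.9%) were at least 2-fold higher in cDC1 than in all other kept barcodes of all 3 libraries, with 10 CPM added to each level. Because members were chosen by their transcripts, this count is a description. The 15 genes named from it by size, leaving out the selection genes, were Plbd1, Ifi205, Ppt1, Rab7b, H2-DMa, H2-Ab1, Amica1, H2-Aa, Flt3, H2-Eb1, Lsp1, H2-DMb1, Rnase6, Batf3 and Cd74. Among them were 6 genes of antigen presentation on MHC class II, genes of endosomes and lysosomes (Plbd1, Ppt1, Rab7b), and genes of the dendritic lineage (Flt3, Batf3).

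Batf3 (chromosome 1, 191097847 to 191108945, plus strand), the transcription factor that cDC1 need, was at 199 CPM (interval 160.3 to 243), 134 CPM (110.4 to 162) and 147 CPM (114 to 186) in cDC1. All other kept barcodes had 6.73 CPM, 8.47 CPM and 6.47 CPM. The log2 ratio was 3.29 ± 0.34 (SD, n = 3 libraries), and the 3 libraries of cDC1 lay far above those of the other barcodes. Batf3 was not exclusive to cDC1, since cDC2-like barcodes held 82.8 CPM, 84.5 CPM and 96.7 CPM of it.

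Plbd1, a phospholipase of myeloid granules, had the highest ratio of the named genes, 4.43 ± 0.42 (log2, SD, n = 3 libraries), with 827 CPM, 874 CPM and 1012 CPM in cDC1. Ppt1, a lysosomal enzyme that removes fatty acids from proteins, was at 690 CPM, 872 CPM and 710 CPM, compared with 49.5 CPM, 53.1 CPM and 43.1 CPM in the other kept barcodes. Flt3, the receptor of FLT3L, was at 149.5 CPM, 97.7 CPM and 97.8 CPM. All 3 genes were higher in cDC1 of every library than in the other kept barcodes of any library. Ifi205, an interferon-induced gene, was at 224 CPM, 322 CPM and 349 CPM in cDC1 against 7.80 CPM, 3.56 CPM and 13.4 CPM elsewhere, and its log2 ratio was 4.09 ± 0.47.

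MHC class II genes were among the most abundant transcripts of cDC1. Cd74, the invariant chain that guides class II molecules to endosomes, was at 13833 CPM, 12332 CPM and 16633 CPM, and H2-Aa, the class II alpha chain, at 8028 CPM, 7163 CPM and 9953 CPM. The 14 class II genes summed to 40995 CPM, 36408 CPM and 47986 CPM in cDC1, and to 52663 CPM, 53340 CPM and 58757 CPM in cDC2-like barcodes. The sum was thus lower in cDC1 than in cDC2-like barcodes of each library, whereas T lymphocyte-like barcodes held 711 CPM, 1001 CPM and 631 CPM.

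Promoter stretches of 4 of these genes are shown. Their windows held a match to the class II or the interferon motif below, as did that of Rnase6, which is not shown. Class II promoters carry a CCAAT element, the Y box, in front of the start site, and interferon response elements repeat GAAA. The search covered 250 bases before to 50 after each RefSeq start (GRCm38.p6), on both strands, and found windows for 11 of the 15 named genes and for all 6 selection genes. The letters CTGATTGG lay in 2 of the 11 (H2-Aa and H2-Eb1) and in 1 of the 6 (Irf8), compared with 4.10% of all 32851 windows. A pair of GAAA repeats set apart by 2 bases lay in 3 of the 11 (Ifi205, Amica1 and Rnase6) and 0 of the 6, compared with 3.44% of all windows. TGANTCA, a site type of the AP-1 family to which BATF3 belongs, lay in 2 of the 11 (H2-DMa and H2-DMb1), compared with 7.81%, and AGAGGAAG, a PU.1-type site, in 1 (Rnase6), compared with 4.55%. CTGATTGG also lay in the windows of the class II genes H2-Oa and H2-Eb2. No matches of different motifs overlapped in a window. The stretches below end where the annotated gene begins, and bases are counted back from the RefSeq start. Capitals mark the match, which is a description of letters and not of binding.
H2-Aa (chr17:34287824-34287923, minus strand, CTGATTGG from base -51): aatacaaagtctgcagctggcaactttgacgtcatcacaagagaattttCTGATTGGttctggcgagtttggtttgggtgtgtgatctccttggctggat
H2-Eb1 (chr17:34305767-34305866, plus strand, CTGATTGG from base -62): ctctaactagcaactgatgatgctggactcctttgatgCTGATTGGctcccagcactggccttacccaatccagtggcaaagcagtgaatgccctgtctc
Ifi205 (chr1:174031811-174031905, minus strand, GAAA repeats from base -134): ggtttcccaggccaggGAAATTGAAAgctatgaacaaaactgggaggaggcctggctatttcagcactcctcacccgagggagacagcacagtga
Amica1 (chr9:45079083-45079182, plus strand, GAAA repeats on the opposite strand, read here as TTTC, from base -36): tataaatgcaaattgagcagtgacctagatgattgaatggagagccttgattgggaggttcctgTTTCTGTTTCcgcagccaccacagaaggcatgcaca

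The MHC class I genes, which cross-presentation needs, were at like levels in cDC1 and cDC2-like barcodes. The 27 genes of the list summed to 9713 CPM, 9081 CPM and 10225 CPM in cDC1 and to 9096 CPM, 8906 CPM and 9638 CPM in cDC2-like barcodes. Of the 18 genes tested in that comparison, 1 was at least 2-fold higher and 1 at least 2-fold lower in cDC1 of every library, beside 2.57% and 4.77% of all tested genes, and the median log2 ratio was 0.13. T lymphocyte-like barcodes held 11871 CPM, 12353 CPM and 13045 CPM of the same genes. Classical and non-classical class I genes are alike in sequence, so reads may be split among them.

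Against cDC2-like barcodes (85, 104 and 99 in the 3 libraries), 35 of 1363 genes were at least 2-fold higher in cDC1 of every library (2.57%) and 65 were at least 2-fold lower (4.77%). For the 89 cDC1 with all 6 selection genes these counts were 62 and 136. The number of genes compared there is not given, so these 2 counts have no share. The median log2 ratio over all genes compared was -0.04. Of the 10 cDC1 identity genes beyond the selection that were compared, 8 were higher and 0 lower, with a median of 2.38. Of the 13 cDC2 genes compared, 0 were higher and 9 lower, with a median of -1.75. cDC2-like barcodes had a UMI of at least 3 of Cd209a, Clec10a, Mgl2, Sirpa, Itgax and Irf4, with Cd209a or Clec10a among them. They held no UMI of Xcr1 or Clec9a, by which cDC1 were chosen, so these directions are set by the choice of cells.

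The genes higher in cDC1 were led, after Xcr1, Clec9a and Irf8, by Rab7b, Ppt1, Serpinb6b, P2ry14, Dnase1l3, Ifi205 and Itgae. Serpinb6b, a protease inhibitor, was at 156 CPM, 105 CPM and 140 CPM in cDC1 and at 4.97 CPM, 2.32 CPM and 11.2 CPM in cDC2-like barcodes. P2ry14, a receptor for UDP-sugars, was at 83.3 CPM, 109 CPM and 128 CPM against 6.63 CPM, 1.16 CPM and 3.72 CPM. Dnase1l3, which digests DNA of dead cells, was at 135 CPM, 127 CPM and 82.9 CPM against 3.31 CPM, 3.47 CPM and 11.2 CPM. For each of these genes, the lowest cDC1 library lay above the highest cDC2-like library.

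The genes lower in cDC1 were led by Clec10a, Retnla, Ms4a4c, Cd209a, Tnfsf9, Il1r2, Ifitm1, S100a4, Mcemp1 and Ccnd2. Clec10a, a galactose lectin, was at 17.1 CPM, 18.3 CPM and 23.4 CPM in cDC1 and at 389 CPM, 305 CPM and 346 CPM in cDC2-like barcodes. S100a4, a calcium-binding protein of migrating myeloid cells, was at 412 CPM, 227 CPM and 283 CPM against 1426 CPM, 1707 CPM and 1617 CPM. In cDC1 with all 6 selection genes S100a4 was at 3.13 CPM, so most of its UMIs came from members with fewer of them. Retnla, a secreted resistin-like protein, was the least even of these genes, since cDC2-like barcodes held 82.8 CPM, 12.7 CPM and 975 CPM and its log2 ratio was -3.49 ± 2.62.

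**Figure D2:**
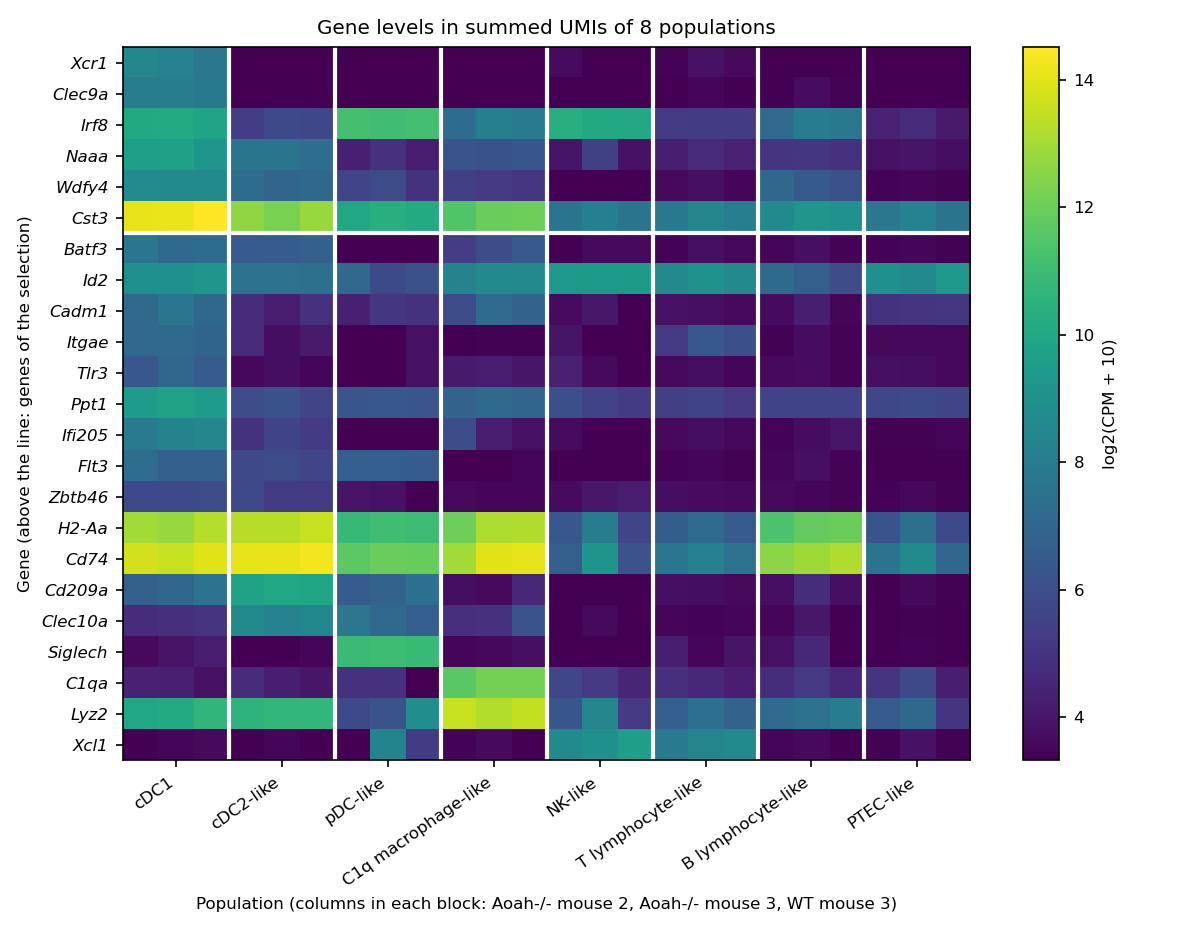
Levels of 23 genes (rows) in 8 populations (blocks of 3 columns: Aoah-/- mouse 2, Aoah-/- mouse 3 and WT), as colour on the scale log2(CPM + 10). Xcr1, Clec9a and Tlr3 were high in the cDC1 block and dark elsewhere, Irf8 was also high in plasmacytoid (pDC)-like and NK-like barcodes, and Cd209a and Clec10a were highest in the cDC2-like block. Barcodes with a UMI of Xcr1 or Clec9a were left out of the cDC2-like, pDC-like and C1q macrophage-like populations, so both genes are absent there by choice. Cd209a and Clec10a helped to define the cDC2-like block.

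Shares of barcodes with a UMI were compared after each barcode was thinned to the minimum UMI total, which every kept barcode reached. Cadm1 was detected in 18.3%, 23.2% and 18.4% of cDC1, in 2.35%, 0.962% and 1.01% of cDC2-like barcodes and in 0.647%, 0.503% and 0.207% of T lymphocyte-like barcodes, which should lack it. Ppt1 was detected in 53.3%, 51.6% and 61.2% of cDC1 but in 7.06%, 7.69% and 6.06% of cDC2-like and 6.61%, 6.198% and 4.44% of T lymphocyte-like barcodes. The share of Ppt1 in cDC2-like barcodes was near that of T lymphocyte-like barcodes. Batf3 was detected in 18.3%, 20% and 22.5% of cDC1 (intervals 9.52 to 30.4, 12.5 to 29.5 and 11.8 to 36.6) and in 11.8%, 19.2% and 13.1% of cDC2-like barcodes, so the higher level of Batf3 in cDC1 was not detectable in thinned shares. Without thinning, Batf3 was detected in 63.3%, 51.6% and 73.5% of cDC1 and Cadm1 in 48.3%, 49.5% and 55.1%. Median totals before thinning were 8013, 7851 and 9775 UMIs for cDC1, 7259, 8161 and 7744 for cDC2-like and 2780, 3093 and 3138 for T lymphocyte-like barcodes.

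Some identity genes were near 0 in the other 7 populations compared and others were also used elsewhere. Gcsam was at 38.4 CPM, 73.2 CPM and 63.8 CPM and Snx22 at 38.4 CPM, 46.4 CPM and 29.8 CPM in cDC1, and neither passed 1.24 CPM in any library of the other 7 populations. Tlr3, the receptor for double-stranded RNA, was at 72.6 CPM, 122 CPM and 85.1 CPM in cDC1, above every other population. By contrast Cadm1, at 134.5 CPM, 199 CPM and 125 CPM in cDC1, was also at 50.2 CPM, 140 CPM and 108 CPM in C1q macrophage-like barcodes. Itgae was also present in T lymphocyte-like barcodes at 27.1 CPM, 75.5 CPM and 57.0 CPM, and Id2, which was at 485 CPM, 483 CPM and 587 CPM in cDC1, reached 610 CPM, 687 CPM and 678 CPM in NK-like barcodes. Cd8a, which marks cDC1 of lymphoid organs, was at 8.54 CPM, 2.44 CPM and 0 UMIs in cDC1. Cd207 had 0 UMIs in Aoah-/- mouse 3, 2.14 CPM in Aoah-/- mouse 2 and 51.0 CPM in the WT mouse.

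RNA of other cell types was uneven between lists and libraries. Among the higher sums were those of the 15 proximal tubule genes (2469 CPM, 2633 CPM and 1159 CPM, led by Kap) and the 13 macrophage genes (1367 CPM, 1523 CPM and 1965 CPM, led by Lyz2, which dendritic cells also express). The selection limited Lrp2, Slc34a1 and the C1q genes, so sums that hold them are partly set by it. The 6 erythroid genes summed to 79.0 CPM, 86.7 CPM and 1161 CPM, led by Hbb-bs. The 10 T lymphocyte genes summed to 32.0 CPM, 15.9 CPM and 12.8 CPM, led by Il7r, with Lat at 0 and Cd3g limited by the selection. The 10 B lymphocyte genes summed to 14.95 CPM, 118 CPM and 8.51 CPM, with Ly6d supplying 116 CPM in Aoah-/- mouse 3. Of these genes 6 were at 0, among them Cd79a, which the selection limited. The 10 natural killer genes summed to 197 CPM, 121 CPM and 302 CPM, led by Klrk1, with Ncr1, Klra8 and Prf1 at 0. The 8 endothelial genes summed to 19.2 CPM, 154 CPM and 14.9 CPM, the 10 neutrophil genes to 32.0 CPM, 180 CPM and 2.13 CPM (S100a9 most, with Ly6g, Camp and Ngp at 0), and the 8 fibroblast genes to 0, 1.22 and 6.38 CPM. Endothelial and neutrophil RNA was highest in Aoah-/- mouse 3, erythroid RNA in the WT library and proximal tubule RNA in the Aoah-/- libraries, and their part in the results was not tested.

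The share of cDC1 among kept barcodes had overlapping intervals in the 3 libraries. cDC1 made up 0.389% (interval 0.297 to 0.4999), 0.482% (0.391 to 0.589) and 0.369% (0.273 to 0.488) of them. The mean of the Aoah-/- libraries exceeded the WT library by 0.0663 percentage points, with an SD of 0.0664 between the Aoah-/- libraries. It was 0.01935 without Aoah-/- mouse 3, 0.113 without Aoah-/- mouse 2 and 0.0150 for members with no C1q UMI. The difference turned to -0.0162 for barcodes with both Xcr1 and Clec9a and to -0.00700 for those with all 6 selection genes.

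The direction depended on the denominator. Among barcodes with a UMI of Ptprc, the leukocyte gene CD45, cDC1 with a Ptprc UMI made up 0.903% (0.675 to 1.182), 1.05% (0.820 to 1.317) and 1.34% (0.970 to 1.797). The difference was -0.363 (SD 0.102 between the Aoah-/- libraries), and the intervals overlapped. Among cDC1 plus cDC2-like barcodes, cDC1 made up 41.4% (33.3 to 49.9), 47.7% (40.6 to 54.9) and 33.1% (25.6 to 41.3), a difference of 11.5 (SD 4.50). With pDC-like barcodes added, the shares were 33.0%, 39.4% and 25.9%. Both Aoah-/- libraries were above the WT library for the dendritic denominators and below it for the leukocyte denominator. Of the members with all 6 selection genes there were 27, 37 and 25, that is 45.0%, 39.0% and 51.0% of the cDC1 of each library.

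**Figure D3:**
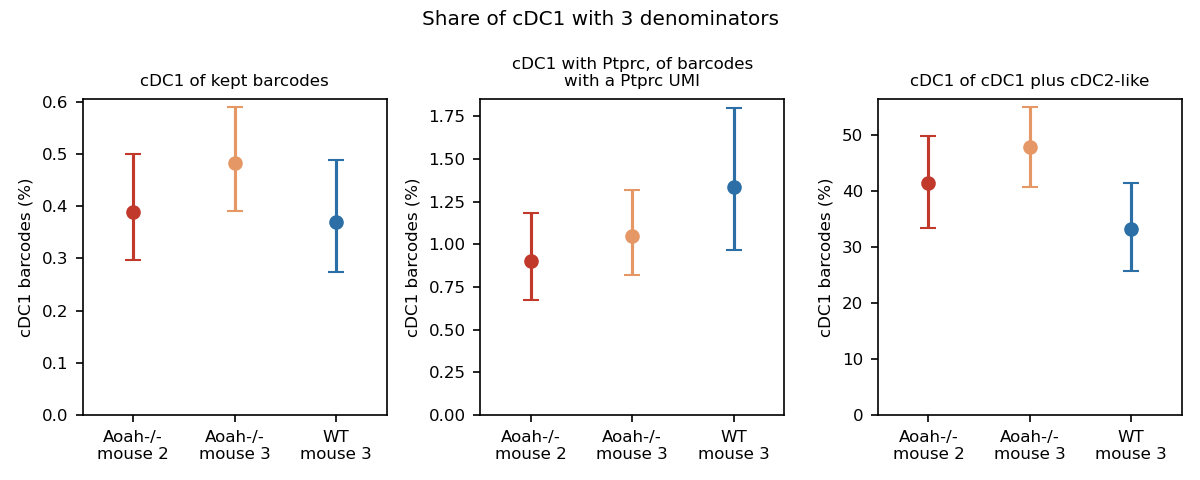
Share of cDC1 (percent, vertical axis) in each library (horizontal axis) of kept barcodes, of barcodes with a Ptprc UMI, and of cDC1 plus cDC2-like barcodes, with exact Clopper-Pearson 95% intervals as bars. The intervals of the 3 libraries overlapped in each panel, and the WT library was highest in the second and lowest in the third.

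A few barcodes of the selection carried the genes of maturation and others those of division. Mature cDC1 were barcodes with a UMI of at least 3 of the 8 genes Ccr7, Fscn1, Ccl22, Cacnb3, Socs2, Il4i1, Nudt17 and Cd40. There were 3 of 60 (5%, 1.04 to 13.9), 3 of 95 (3.16%, 0.656 to 8.95) and 6 of 49 (12.2%, 4.63 to 24.8). The difference of -8.17 percentage points (Aoah-/- minus WT), which was -1.89 when 4 genes were needed and -3.40 after thinning, rested on these 12 barcodes, of which 7 had exactly 3 of the genes, and 14 further members had 2. The intervals of the 3 libraries overlapped. Of the 12, 3 had 3 selection genes, 5 had 4, 2 had 5 and 2 had all 6. Most thus had 3 or 4 genes, groups whose pooled cDC2 sum exceeded the pooled identity sum. These sums are not given for the 12 alone. Fscn1, Cacnb3 and Nudt17 had 0 UMIs in the 89 barcodes with all 6. The selection needed Xcr1 or Clec9a, so mature cells without them were not counted.

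In the 12 mature barcodes, other genes were also at higher or lower levels. Of identity genes that the selection did not use, Batf3 was at 135 CPM in mature and 156.5 CPM in the other cDC1. Cadm1 was at 114 CPM against 166 CPM. Il12b, the p40 subunit of interleukin-12, had 254 UMIs (1806 CPM) in mature and 18 UMIs (11.1 CPM) in the other cDC1, and in barcodes with all 6 selection genes it had 0, 35 and 1 UMIs. Ccl17, a chemokine for T cells, was at 3575 CPM against 98.3 CPM, Relb, an NF-kappaB subunit, at 277 CPM against 20.4 CPM, and Cd274, the checkpoint ligand PD-L1, at 149 CPM against 16.1 CPM. Conversely, Tlr3 had 0 UMIs in mature and 174 UMIs (108 CPM) in the other cDC1, and Itgae was at 35.5 CPM against 137 CPM. Naaa was at 363 CPM against 793 CPM, Xcr1 at 149 CPM against 298 CPM and Clec9a at 135 CPM against 252 CPM. The selection used Naaa, Xcr1 and Clec9a, so their levels are given as a description only. Median totals were 12449 UMIs in mature and 8196 in the other cDC1.

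The level of these genes in a library turned on a few barcodes. Il12b had 153 UMIs in 3 barcodes, 57 UMIs in 7 barcodes and 62 UMIs in 4 barcodes, which gave 327 CPM, 69.6 CPM and 132 CPM. The 3 barcodes with the most UMIs held 100%, 84.2% and 98.4% of them. Ccl17 had 154, 358 and 150 UMIs, of which 70, 182 and 109 were in the highest barcode of each library. The Aoah-/- libraries lay on both sides of the WT library for Il12b, and no order between genotypes can be read from it.

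Cycling cDC1, with a UMI of at least 3 of 10 genes of division (Mki67, Top2a, Birc5, Cdk1, Ccnb2, Cenpf, Cenpe, Nusap1, Ube2c and Tpx2), were 4 of 60 (6.67%, 1.85 to 16.2), 10 of 95 (10.5%, 5.16 to 18.5) and 3 of 49 (6.12%, 1.28 to 16.9). Of the 17, 9 had all 6 selection genes, 5 had 5, 1 had 4 and 2 had 3. The intervals overlapped, and the difference of 2.47 percentage points turned to -2.29 when 2 genes sufficed and to -0.991 after thinning. In the 17 cycling barcodes, Stmn1, a microtubule regulator, was at 717 CPM against 43.8 CPM in the other cDC1, and Tubb5, a tubulin, at 1654 CPM against 177 CPM. Cadm1, which the selection did not use, was at 219 CPM against 156 CPM. Of the selection genes, Irf8 was at 1714 CPM against 998 CPM and Xcr1 at 318 CPM against 283 CPM. Cst3 was lower, at 18504 CPM against 19959 CPM. The levels of these selection genes are given as a description only. Il12b had 0 UMIs and Cxcl9 was at 27.4 CPM against 248 CPM in the other cDC1. The state was read from transcripts alone, and free RNA of dividing cells was not tested.

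**Figure D4:**
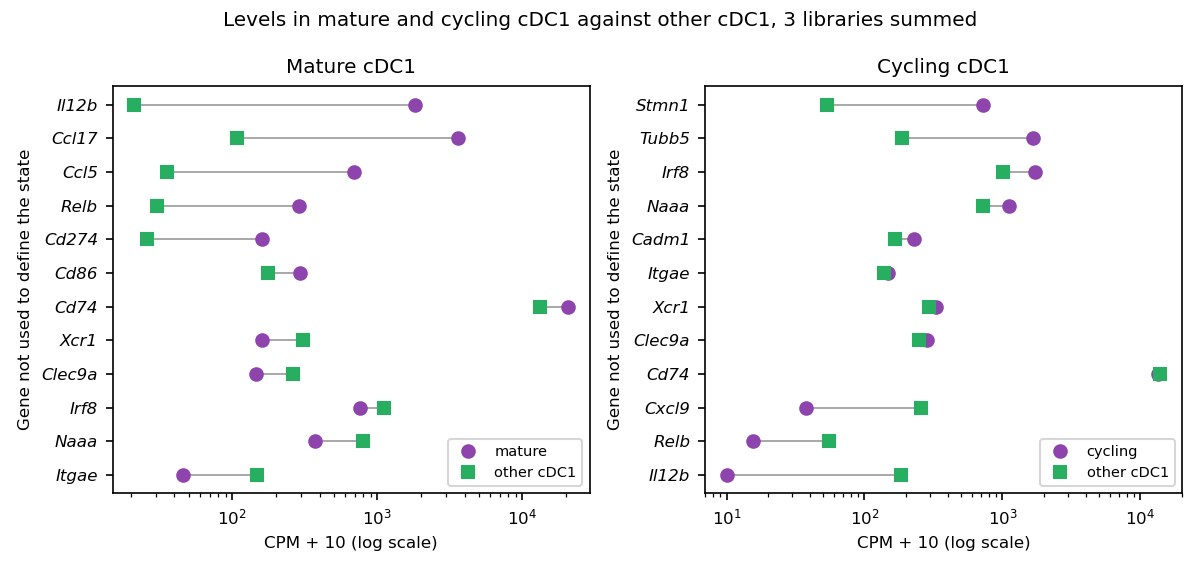
Levels (CPM + 10, log scale, horizontal axis) of genes that did not define the state (vertical axis) in mature or cycling cDC1 (circles) and in the other cDC1 (squares), 3 libraries summed, with 1 value per group and no error bar. Il12b, Ccl17 and Relb lay to the right in mature cDC1 and Itgae to the left, and Stmn1 and Tubb5 lay to the right in cycling cDC1.

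The ligands Xcl1 and Flt3l had their highest levels outside cDC1. Xcl1, the ligand of XCR1, was at 401 CPM, 475 CPM and 778 CPM in NK-like and 234 CPM, 347 CPM and 403 CPM in T lymphocyte-like barcodes, and had 0, 1 and 1 UMIs in cDC1. In both populations the WT library was highest. Flt3l was at 34.5 CPM, 28.6 CPM and 22.2 CPM in NK-like and at 30.7 CPM, 30.1 CPM and 35.2 CPM in T lymphocyte-like barcodes, compared with 4.27 CPM, 1.22 CPM and 6.38 CPM in cDC1. On the receiving side, Ccr2, the receptor for CCL2, was at 421 CPM, 358 CPM and 319 CPM in cDC1, which was close to the 414 CPM, 405 CPM and 397 CPM of cDC2-like barcodes. Ifngr1, the interferon-gamma receptor chain, was at 216 CPM, 241 CPM and 262 CPM.

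Receptors for bacterial LPS were uneven. Tlr4 had 0, 2 and 1 UMIs in cDC1, all under the floor of 3 counts, and Tlr9 had 0, 0 and 1. Cd14, the LPS co-receptor, was at 199 CPM, 118 CPM and 236 CPM, but at 33.2 CPM, 82.9 CPM and 114 CPM in barcodes with all 6 selection genes. Unc93b1, the chaperone of endosomal Toll-like receptors, was at 276 CPM, 267 CPM and 330 CPM. Tlr11 and Tlr12, receptors for protozoan profilin, were at 17.1 CPM, 19.5 CPM and 29.8 CPM and at 21.4 CPM, 13.4 CPM and 23.4 CPM. Among the 3 of 24 genes of this list that reached 100 CPM, 0 were 2-fold higher or lower in both Aoah-/- libraries than in the WT library, beside 2.31% and 0.308% of all 1298 tested genes, a rate at which 3 genes would seldom hold one.

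Few genes differed by 2-fold between Aoah-/- and WT cDC1, and they included tubule and globin genes. Of 1298 genes with at least 100 CPM in a genotype, 1225 (94.4%) were within 2-fold in both Aoah-/- libraries, with 10 CPM added. At least 2-fold higher in both were 30 genes (2.31%), and at least 2-fold lower in both were 4 (0.308%). Of the 30, 4 were among the 10 distal nephron genes, 2 were proximal tubule genes of the list, 5 were on other lists and the rest were on none, while 3 of the 4 lower genes were globins. The median log2 ratio of all tested genes was -0.05. With median ratio size factors in place of UMI totals this median moved to -0.26, and the calls became 26 higher and 10 lower.

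Among the 30 higher genes were transporters and secreted proteins of the nephron. Umod, the uromodulin of the thick ascending limb, was at 164 CPM (130 to 206), 527 CPM (479 to 580) and 10.6 CPM (3.45 to 24.8) in cDC1. Spp1, osteopontin, was at 972 CPM, 449 CPM and 53.2 CPM, and a single barcode held 342 of its 455 UMIs in Aoah-/- mouse 2. Wfdc2, a secreted protein of distal epithelium, was at 184 CPM, 337 CPM and 4.25 CPM from 2 UMIs in the WT mouse, and Fxyd2, a subunit of the sodium pump, at 660 CPM, 969 CPM and 104 CPM. In each of these genes both Aoah-/- libraries lay above the upper limit of the WT interval.

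Most of these 30 genes had the same direction in T lymphocyte-like, B lymphocyte-like and all other kept barcodes, but few of them by 2-fold. In both Aoah-/- libraries 28 of them were at a higher level in the other kept barcodes than in cDC1. In both, 25 were above WT in T lymphocyte-like, 21 in B lymphocyte-like and 19 in all other kept barcodes, and 3, 8 and 3 of them by at least 2-fold. The share of all tested genes above WT in these populations is not given here, so the counts are a description. Whether the ratios of the 30 genes were larger in cDC1 was not tested. The 3 barcodes with the most UMIs held a median of 71.3% of their UMIs in the former Aoah-/- library and 67.8% in the latter, and for Umod 71.4% and 89.4%. After thinning, Umod was detected in 8.33%, 17.9% and 2.04% of cDC1 and in 14.7%, 17.9% and 6.095% of T lymphocyte-like barcodes, so the shares in cDC1 were at or below those of a cell type that should lack the gene and are not read as expression. A single barcode of Aoah-/- mouse 3 held 288 of its 432 Umod UMIs. The part of free RNA, or of tubule cells caught with a cDC1, was not tested. The 10 distal nephron genes summed to 683 CPM, 1382 CPM and 34.0 CPM in cDC1, and to 796 CPM, 1182 CPM and 299.7 CPM in T lymphocyte-like barcodes. In cDC2-like barcodes they summed to 215 CPM, 133 CPM and 123 CPM, below cDC1 in both Aoah-/- libraries and above it in the WT library. Of the cDC1, 7, 23 and 0 held more than 2 UMIs of these genes. Without these 30 barcodes, a choice made after seeing the values that removes Aoah-/- barcodes alone and uses called genes, 6 genes were higher (0.469% of 1279) and 4 lower (0.313%), and 4 of the 30 higher genes remained, Cebpb, Egr1, Gm8730 and Spp1. The loss of Umod, Slc12a1, Slc12a3 and Wfdc2 follows from that choice.

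The 4 lower genes were Hbb-bs, Hba-a1, Hba-a2 and Erdr1. Hbb-bs, the beta globin of red blood cells, was at 42.7 CPM, 50.1 CPM and 504 CPM in cDC1, and at 1799 CPM, 1854 CPM and 3919 CPM in T lymphocyte-like barcodes. The 3 barcodes with the most UMIs held 78.1% of the Hbb-bs UMIs of the WT cDC1. Hba-a1 and Hba-a2 are near-identical, so their reads cannot be told apart with certainty. All 4 genes were also lower than WT in T lymphocyte-like, B lymphocyte-like and all other kept barcodes of both Aoah-/- libraries. The share of all tested genes lower there is not given here. In cDC2-like barcodes Hbb-bs was at 2145 CPM, 79.9 CPM and 707 CPM. There Hbb-bs, Hba-a1 and Hba-a2 were above WT in Aoah-/- mouse 2 and below it in Aoah-/- mouse 3. The part of free RNA in these differences was not tested.

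**Figure D5:**
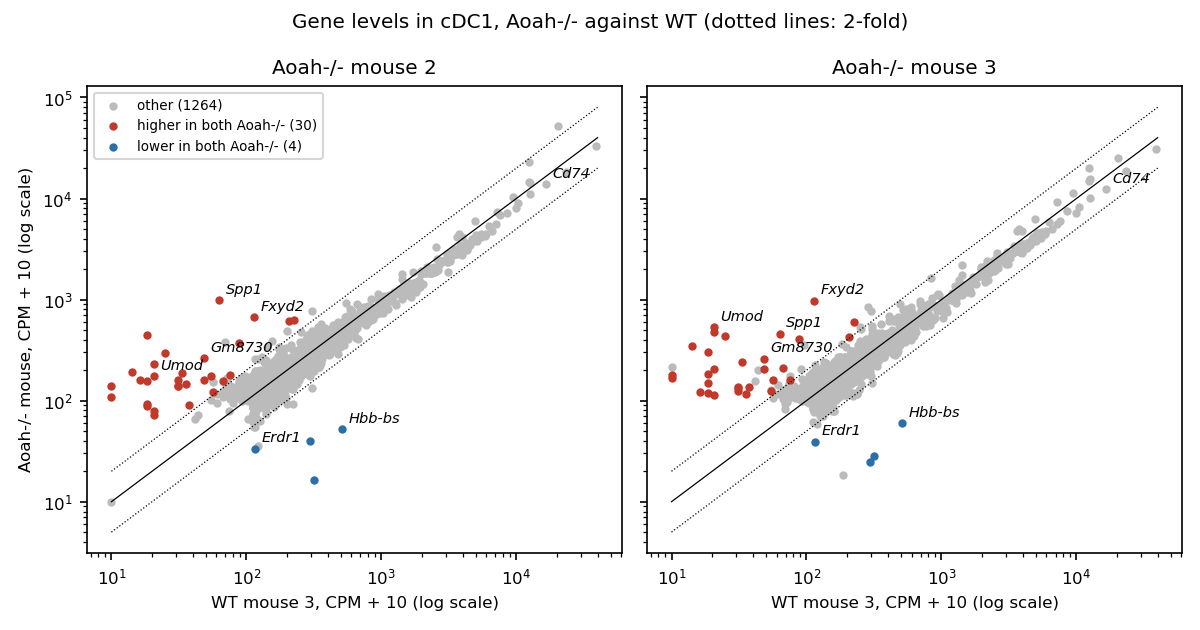
Level of each of 1298 tested genes in cDC1 of the WT mouse (horizontal axis) and of each Aoah-/- mouse (vertical axis), CPM + 10 on log scales, with the solid line at equality and dotted lines at 2-fold. The 30 genes higher in both Aoah-/- libraries lie mostly at low WT levels, the 4 lower genes include Hbb-bs and Erdr1, and Cd74 lies within 2-fold.

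The following lists held no called gene, where 2.31% of all tested genes were called higher and 0.308% lower, so lists of this size would hold few at that rate. Of the 11 tested cDC1 identity genes beyond the selection 0 were called, with a median log2 ratio of 0.13, compared with -0.05 for all tested genes. Of 11 MHC class II genes 0 were called, with a median of -0.27, and 9 of them were below the WT library in both Aoah-/- libraries, as were 43.3% of all tested genes. Of 17 MHC class I and cross-presentation genes 0 were called (median -0.17), and of 6 pan-dendritic, 8 chemokine and growth factor receptor and 8 interferon-induced genes 0 were called (medians 0.25, 0.08 and -0.12). Of 8 maturation genes 0 were called (0.38), of 5 cell cycle genes 0 (0.17), of 7 cDC2 genes 0 (-0.37), of 3 macrophage genes 0 (-0.52) and of 3 checkpoint genes 0 (-0.24). Among these lists only the class I and class II medians kept their sign under every alternative run. The median of all tested genes was also negative in most runs, so a kept sign gives no direction, and none is read for any list. With all 6 selection genes the class I median was -0.05 and the class II median -0.13, where that of all tested genes was -0.06. The maturation median was -0.0006 without Aoah-/- mouse 2. The cell cycle median was -0.26 without Aoah-/- mouse 3 and -0.04 under median ratio size factors. The macrophage median was 0.04 as means of barcode CPM and 0.37 with no CPM minimum. Under median ratio size factors the median of the identity genes became -0.07, so its sign depended on the scaling, while that of the class II genes became -0.46 and that of all tested genes -0.26. Without barcodes over 2 distal nephron UMIs the class II median was -0.10 and the class I median -0.01, where the median of all tested genes was -0.01, and without any such UMI the class II median was -0.05.

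The lists given here held 1 or 2 called members each, beside the 2.31% of all tested genes called higher. Of 13 cytokine and chemokine genes 1 was higher (Spp1), of 14 genes of dead cell uptake and endosomes 2 were higher (Cd63 and Ctsd, of the lysosome), of 2 plasmacytoid genes 1 was higher (Klk1, which the tubule also expresses), and of 3 proximal tubule genes 2 were higher (Fxyd2 and Gpx3). Of 20 immediate early and heat shock genes 1 was higher. This was Egr1, a transcription factor induced by stress, at 361 CPM, 393 CPM and 78.7 CPM, with 37.3% and 37.6% of the UMIs of the Aoah-/- libraries in their 3 highest barcodes. Of this list 16 genes were above the WT library in both Aoah-/- libraries, with a median of 0.45, where 35.8% of all tested genes were above it in both. Such genes respond to tissue digestion, and their summed level was 14019 CPM, 17637 CPM and 12555 CPM.

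Among the 89 cDC1 with all 6 selection genes, the called genes were for the most part other genes. Of 1291 genes 7 were higher (0.542%) and 7 lower (0.542%), of which 1 and 2 were among the 30 and the 4. The higher genes were Ccl17, Cxcl9, Gm8730, Rasgef1b, Sept3, Slc25a20 and Zmat2, and the lower genes were Avpi1, Erdr1, Grasp, Hbb-bs, Hspb1, Psmc4 and Sgk1, all named after their values were seen. Of the 14 identity genes tested here 2 were higher (Cxcl9 and Sept3), of 9 cytokine genes 2 (Ccl17 and Cxcl9), of 3 maturation genes 1 (Ccl17) and of 9 interferon-induced genes 1 (Cxcl9). None of the called genes was a distal nephron or proximal tubule gene of the lists. Cxcl9, the interferon-induced chemokine that draws CXCR3-bearing T cells, was at 519 CPM, 305 CPM and 122 CPM in these 27, 37 and 25 barcodes. In all cDC1 it was at 380 CPM (326 to 440), 183 CPM (155 to 215) and 145 CPM (112 to 183), where Aoah-/- mouse 3 was within 2-fold of the WT mouse and 85.4%, 48.7% and 88.2% of the UMIs lay in 3 barcodes of each library. Ccl17 had 19, 189 and 1 UMIs in the 89 barcodes, so its WT level there was under the floor, and in all cDC1 it was at 329 CPM, 437 CPM and 319 CPM.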

How the data were processed

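A Chromium 3′ kit was used on kidney cells of 3 mice, 2 of them Aoah-/- and 1 WT. The authors deposited raw UMI counts per gene and barcode, 1 matrix per mouse, with no normalization. Processing notes name Cell Ranger 3.1.0, STAR, Seurat 4.2.0 and mm10, whereas the matrix headers name cellranger 6.1.2. Counts of cDC1 were summed per library and scaled to CPM (python 3.11.15, numpy 2.4.6, scipy 1.17.1, pandas 2.3.3, matplotlib 3.10.9). Genes with at least 100 CPM in either group were compared after 10 CPM was added. A gene was called when it differed at least 2-fold in both Aoah-/- libraries from the WT library, or in all 3 libraries against another population. No doublet caller was run, and 2 cDC1 exceeded 3 times their library's median UMIs.

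Named genes were the 15 with the largest ratios against other kept barcodes among genes detected in at least 20% of cDC1, and the 10 largest per direction in the other comparisons. The members, the 26 gene lists and the rules were chosen with earlier results of these data known. The list of 10 distal nephron genes was added after values were seen. Population names ending in -like rest on markers. Alternatives changed the CPM added, the CPM minimum, the scaling, the selection and the libraries used. Positions are GRCm38, the assembly of mm10.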

Additional observations from a re-analysis of the deposited data

How the results depend on the processing

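With 1 WT library, leaving it out allowed no comparison of genotypes. No paired analysis was possible because the groups share only replicate number 3. Selections by distal nephron UMIs or by all 6 selection genes were chosen after seeing the data. TMM scaling was not run. At these depths a level under the floor of 3 counts could not be compared. The cause of the changes below was not tested.

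The Aoah-/- minus WT share of kept barcodes (0.0663 percentage points) became -0.0162 for barcodes with both Xcr1 and Clec9a, -0.0148 without barcodes over 2 distal nephron UMIs and -0.00700 with all 6 selection genes. It was -0.363 of leukocyte barcodes and 11.5 of cDC1 plus cDC2-like barcodes. The 30 genes higher in Aoah-/- cDC1 (2.31% of 1298) became 68 with a 50 CPM minimum (2.59% of 2625) and 12 with 200 CPM (1.935% of 620). With no minimum there were 242 (1.786% of 13550), so the minimum changed the number tested more than the share. There were 16 with at least 4 selection genes (1.225%) and 6 without barcodes over 2 distal nephron UMIs (0.469%). Without any such UMI there were 8 (0.628%), and with all 6 selection genes 7 (0.542%). Leaving out an Aoah-/- library gave 44 (without mouse 3, 3.354%) to 56 (without mouse 2, 4.211%). The 4 lower genes (0.308%) became 9 with a 50 CPM minimum (0.343%), 16 with none (0.118%) and 10 with median ratio size factors (0.726%). There were 10 without any distal nephron UMI (0.7855%) and 7 with all 6 selection genes (0.542%). With either Aoah-/- library left out there were 11 (0.827% without mouse 2 and 0.838% without mouse 3). Against cDC2-like barcodes, the 35 higher genes became 59 and 19 with 50 and 200 CPM minimums and 62 with all 6 selection genes, and the 65 lower genes became 43 with 200 CPM, 38 with 50 CPM added and 136 with all 6 selection genes. The 342 genes higher than in other kept barcodes became 189 with a 200 CPM minimum and 214 as means over barcodes. The numbers of genes compared against cDC2-like and other kept barcodes under these settings are not given, so these counts have no shares. The mature difference (-8.17) became -3.48 with 2 genes, -1.89 with 4 and -3.40 after thinning, and the cycling difference (2.47) became -2.29 with 2 genes and -0.991 after thinning. Of 273 list medians recomputed, 98 moved by more than the SD between the Aoah-/- libraries.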

Other observations

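Among the genes called between the genotypes, in all cDC1 and also in those with all 6 selection genes, were Gm8730 and Erdr1, which differed in other populations as well. Gm8730, a predicted gene that resembles a ribosomal protein gene, was at 252 CPM, 250.3 CPM and 38.3 CPM in cDC1 (Aoah-/- mouse 2, then Aoah-/- mouse 3, then WT), with a UMI in 45 of 60, 68 of 95 and 15 of 49 barcodes. Gm8730 was at 230.2 CPM, 257 CPM and 34.7 CPM in cDC2-like barcodes, at 236 CPM, 199 CPM and 34.4 CPM in T lymphocyte-like barcodes and at 279 CPM, 149.8 CPM and 28.2 CPM in B lymphocyte-like barcodes. It was thus higher in both Aoah-/- libraries in each of these populations.

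Erdr1 was at 23.5 CPM, 29.3 CPM and 106 CPM in cDC1 in the same order. It was at 53.0 CPM, 33.6 CPM and 94.3 CPM in cDC2-like, at 56.1 CPM, 26.9 CPM and 126 CPM in T lymphocyte-like and at 57.7 CPM, 29.3 CPM and 109.7 CPM in B lymphocyte-like barcodes, and was lower in both Aoah-/- libraries in each. Library, mouse and genotype cannot be told apart with 1 WT library.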
